A study of Mus musculus with 4 samples.

Results

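Read counts of 34 genes of the unfolded protein response and of the ATF4 response were examined in C3H10T1/2 cells, a mouse mesenchymal stem cell line. The members were chosen as a list of gene symbols, and all 34 were found among the 54532 Ensembl gene identifiers of the counts. They fall into 3 branches. The first holds 16 chaperones and genes of ER-associated degradation (ERAD), the second 7 sensors and transcription factors, and the third 11 genes of amino acid supply and stress output that are known ATF4 targets. All 34 passed the filter on low counts that left 19446 genes for testing.

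The 4 libraries were DKO clone 5 and DKO clone 1, 2 clones with a double knockout of the methyltransferase genes Dnmt3a and Dnmt3b, 1 library of PRDX1MT cells, with a CRISPR edit where the splice acceptor of Prdx1 intron 5 lies, and 1 library of unedited cells (WT). PRDX1MT is labelled both by that splice site and as a Prdx1 knockout. Whether the Prdx1 edit is present in the DKO clones too is not stated in the labels, and no treatment, dose or time point separated the libraries. The series design text gives the purpose of the lines as the study of how Mmachc, the neighbour of Prdx1, is silenced. WT and PRDX1MT had no replicates, and nothing in the labels says that the clones came from separate editing experiments.

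Library totals lay between 27570136 and 37685798 counts. Prdx1 had 332 CPM in clone 5, 392 CPM in clone 1, 31.2 CPM in PRDX1MT and 399 CPM in WT, where CPM is a count relative to the library's effective size, set with TMM factors. Dnmt3a had 25.9 and 31.3 CPM in the DKO clones, 80.9 CPM in PRDX1MT and 43.7 CPM in WT, and Dnmt3b had 2.03 and 2.83 CPM in the clones, 3.74 CPM in PRDX1MT and 3.28 CPM in WT. Mmachc had 13.5 and 6.03 CPM in the clones, 16.8 CPM in PRDX1MT and 11.1 CPM in WT. None of these 3 genes passed in DKO against WT (log2 ratios -0.61, -0.43 and -0.18), and counts per gene do not show a small edit. Of 10 mesenchymal markers, Vim, Col1a1, Cd44, Itgb1, Pdgfrb, Pdgfra and Ly6a were at 98.1 CPM or more in every library, Eng was at 22.5 to 61.3 CPM and Nt5e at 0.421 to 0.802 CPM. Thy1 stood at 1.38, 0.757 and 0.884 CPM in clone 5, clone 1 and PRDX1MT, against 29.0 CPM in WT. It was the 1 marker of the list called in DKO against WT by edgeR with Benjamini-Hochberg adjustment (log2 ratio -4.76, adjusted p = 0.0321). In clone 5 against WT, Thy1 and Pdgfra passed the size rule described below as lower and Ly6a and Col1a1 as higher. Of all genes, 3.70% were higher and 5.57% lower there. In clone 1 against WT, 1 marker was higher and 1 lower (5.59% and 5.03% of all genes). In PRDX1MT against WT, 0 were higher and 2 lower (4.73% and 4.94%). Between the clones, 2 were higher in clone 5 and 0 lower (4.83% and 6.79%). The summed level of the 10 was 27097, 14761, 25959 and 16528 CPM in clone 5, clone 1, PRDX1MT and WT. The immune markers Ptprc and Cd3e and the epithelial marker Epcam had at most 4 reads in a library. Other markers of those and of endothelial cells were present at low levels. Cd68 had 2.72, 4.37, 2.85 and 2.11 CPM in clone 5, clone 1, PRDX1MT and WT, and its 2.07-fold ratio in clone 1 passed the size rule. Cdh1 had 33, 16, 44 and 68 reads in the same order, and Pecam1 3 to 12 reads. The 10 markers of other cell types summed to 4.32, 5.27, 5.23 and 4.08 CPM in that order. Mitochondrial genes took 0.871% of counts in clone 5, 2.05% in clone 1, 0.519% in PRDX1MT and 2.08% in WT, and the part of this and of the marker levels in the results below was not tested. In bulk RNA, fewer cells that use a gene and less of its RNA per cell cannot be told apart.

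When unfolded proteins build up in the endoplasmic reticulum (ER), 3 sensors in its membrane respond. IRE1 (Ern1) splices the Xbp1 mRNA and ATF6 is cut to release a transcription factor, and both raise chaperones and ERAD genes. PERK (Eif2ak3) phosphorylates eIF2 and so favours translation of ATF4, which drives amino acid synthesis and uptake, the factor CHOP (Ddit3) and the feedback phosphatase subunit GADD34 (Ppp1r15a). ATF4 is also reached through the other eIF2 kinases, so the ATF4 branch can move apart from the chaperones. Gene counts show neither Xbp1 splicing nor ATF4 translation.

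The chaperone and ATF4 branches are known for different promoter elements, so 4 promoters are shown: that of Hspa5, the BiP gene, from the chaperones, and those of Asns, Chac1 and Vldlr from the ATF4 branch, Vldlr being the member that passed a test. Each is the RefSeq window (GRCm38.p6) of 300 bases, 250 before the gene's start and 50 from it, read 5′ to 3′ on the gene's own strand. Capitals mark the ER stress element (ERSE, CCAAT and CCACG with 9 bases of any kind between them) in Hspa5 and the C/EBP-ATF response element (CARE, TGATGNAAN) in the other 3. Where the match lies on the opposite strand, as in Chac1 and Vldlr, the capitals show its reverse complement.
Hspa5: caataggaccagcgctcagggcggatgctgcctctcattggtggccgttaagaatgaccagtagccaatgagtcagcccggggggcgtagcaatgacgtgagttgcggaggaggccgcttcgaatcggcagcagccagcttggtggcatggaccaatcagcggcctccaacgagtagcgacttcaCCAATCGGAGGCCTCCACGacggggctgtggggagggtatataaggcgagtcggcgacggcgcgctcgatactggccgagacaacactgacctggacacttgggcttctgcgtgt
Asns: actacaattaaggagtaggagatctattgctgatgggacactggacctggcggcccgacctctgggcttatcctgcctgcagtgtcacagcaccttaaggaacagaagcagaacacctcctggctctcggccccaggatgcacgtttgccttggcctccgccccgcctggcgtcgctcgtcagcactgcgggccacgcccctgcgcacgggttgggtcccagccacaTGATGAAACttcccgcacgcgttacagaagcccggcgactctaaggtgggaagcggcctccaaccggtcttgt
Chac1: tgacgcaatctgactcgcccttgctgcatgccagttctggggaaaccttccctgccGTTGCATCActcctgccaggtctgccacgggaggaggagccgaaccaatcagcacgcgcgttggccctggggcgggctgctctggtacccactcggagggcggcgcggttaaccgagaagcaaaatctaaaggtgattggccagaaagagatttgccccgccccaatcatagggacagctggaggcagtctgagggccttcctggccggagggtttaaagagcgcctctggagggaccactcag
Vldlr: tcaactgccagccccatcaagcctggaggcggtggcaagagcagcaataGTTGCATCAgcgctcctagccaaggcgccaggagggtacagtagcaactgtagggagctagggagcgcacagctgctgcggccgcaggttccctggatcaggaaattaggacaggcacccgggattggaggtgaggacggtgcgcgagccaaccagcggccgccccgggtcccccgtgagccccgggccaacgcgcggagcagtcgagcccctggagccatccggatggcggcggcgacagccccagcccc

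The windows lie at chr2:34771840-34772139 on the plus strand (Hspa5), chr6:7693160-7693459 on the minus strand (Asns), chr2:119350992-119351291 on the plus strand (Chac1) and chr19:27216770-27217069 on the plus strand (Vldlr, the second of its 2 RefSeq starts). Counting the start base as 0, the Hspa5 match ran from -65 to -47, the Asns match from -23 to -15, the Chac1 match from -194 to -186 and the Vldlr match from -201 to -193. Windows were found for 30 of the 34 members, 33 windows in all, and none for Atf6, Hyou1, Manf and Slc7a5. Both strands were searched. The ERSE was present in 7 of the 14 chaperone and ERAD genes with a window (Calr, Canx, Creld2, Dnajc3, Hsp90b1, Hspa5 and Pdia6) and in 0 genes of the other branches, against 0.137% of all 27025 genes in the table, which has 32851 windows. The related ERSE-II (ATTGG and CCACG with 1 base of any kind between them) was present in Dnajb11 and Herpud1, against 0.0444% of all genes. The CARE was present in 5 of the 10 ATF4 branch genes with a window (Asns, Chac1, Nupr1, Trib3 and Vldlr), in Herpud1 and in 0 of the 6 sensors and transcription factors, against 4.496% of all genes. The spelling of the CARE was set after these promoters had been read, so its count is a description and not independent of them. The core of the UPR element (UPRE, TGACGTGG), to which XBP1 binds, was in 0 of the 30 genes and in 0.714% of all genes. No match of one motif overlapped a match of another in the members' windows.

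CpG dinucleotides, the sites that DNMT3A and DNMT3B methylate, numbered 6 to 39 in the members' windows with a median of 24, against a median of 7 over all windows. The first Vldlr window held 8 and the second 23. Nupr1 had the fewest, 6, and Dnajc3 the most, 39. Methylation itself was not measured.

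Levels of different genes were ordered within each library by TPM, counts per kilobase of merged exons scaled to a common sum. Calr, the calcium-binding lectin chaperone calreticulin, was the highest member in all 4 libraries, at 1212 TPM in clone 5, 1173 TPM in clone 1, 766 TPM in PRDX1MT and 822 TPM in WT. Atf5, an ATF4-related factor, was the highest of the sensors and transcription factors in every library, at 482, 809.9, 748 and 471 TPM in the same order. The top of the ATF4 branch was Phgdh, the first enzyme of serine synthesis, in clone 5 (358 TPM), PRDX1MT (311 TPM) and WT (262 TPM), and Slc3a2, the heavy chain shared by several amino acid transporters, in clone 1 (265 TPM). The sensors lay near the bottom, with Ern1 at 13.1 to 14.9 TPM, Eif2ak3 at 10.4 to 25.0 TPM and Atf6 at 17.3 to 24.4 TPM. Vldlr was the last of the 34 in clone 5, clone 1 and PRDX1MT, at 0.498, 1.37 and 9.52 TPM, and the 33rd in WT, at 18.2 TPM.

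**Figure D1:**
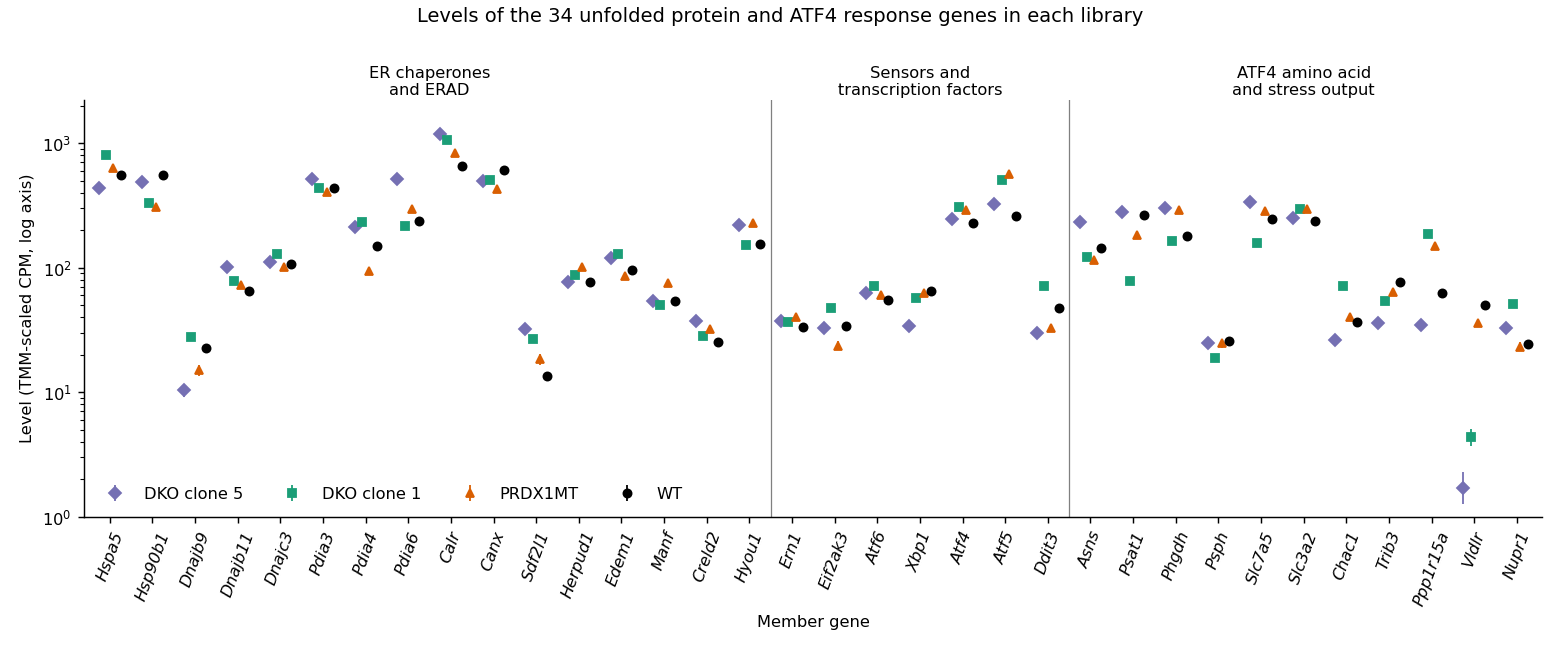
Level of each member in CPM with TMM scaling (log axis) for DKO clone 5, DKO clone 1, PRDX1MT and WT, grouped by branch, with thin lines for 95% counting intervals. The highest and the lowest library differ by under 2-fold for 19 of the 34 members and by 2-fold or more for 15, and Vldlr stands at 1.71 and 4.35 CPM in the DKO clones, against 36.1 CPM in PRDX1MT and 50.4 CPM in WT.

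In DKO cells against WT, 1 of the 34 members passed the test, Vldlr, as lower. By edgeR's quasi-likelihood test with Benjamini-Hochberg adjustment under 0.05, 91 of all 19446 genes were called, 0.468% of them, 88 lower (0.453%) and 3 higher (0.0154%). No chaperone, ERAD gene, sensor or transcription factor passed, and none had an unadjusted p under 0.05, as 988 of all genes did. DESeq2 called 1 member, Vldlr. The fit took its spread from the 2 DKO clones, which left 1 residual degree of freedom, and assumed that the single libraries vary like them.

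Vldlr encodes the very low density lipoprotein receptor, which in mouse liver is raised downstream of PERK and ATF4. The gene (ENSMUSG00000024924) lies at chr19:27216484-27254231 on the plus strand of GRCm38. It had 47 reads in clone 5, 155 in clone 1, 897 in PRDX1MT and 2072 in WT. As levels these were 1.71 and 4.35 CPM in the DKO clones, 36.1 CPM in PRDX1MT and 50.4 CPM in WT. Both clones lay below both other libraries, and clone 5 below clone 1.

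The log2 ratio of DKO to WT was -4.05 (SE 0.62, 95% interval -5.49 to -2.61, adjusted p = 0.0480 by edgeR's quasi-likelihood test with Benjamini-Hochberg adjustment), 16.5-fold lower. This call lies close to its threshold. The adjusted p was 0.0592 with median-of-ratios factors, 0.0614 with total-count scaling and 0.234 with a filter of 1 CPM in 2 libraries, and 0.0439 when only the DKO and WT libraries were fitted. DESeq2 gave 5.23e-06. Against PRDX1MT the log2 ratio was -3.57 (SE 0.62), and the adjusted p of 0.105 by edgeR with Benjamini-Hochberg adjustment did not pass. DESeq2 called that difference (adjusted p = 0.000180). The median log2 ratio of the 568 genes tested on chromosome 19 was 0.01 in DKO against WT.

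The 16 chaperone and ERAD genes had a median log2 ratio of 0.21 in DKO against WT, 12 of them above 0. The median of all 19446 genes was 0.03, with 10176 above 0. In clone 1 and clone 5 alone, 11 and 10 of the 16 were above 0. The ratios ran from -0.46 (Hsp90b1) to 1.13 (Sdf2l1), and 0 of 16 passed. Both clones lay above WT for 8 of the 16 and below it for 3. Over all genes tested, both clones lay on one side of WT for 62.8%, above it for 29.3% and below it for 33.6%.

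Calr had 1188 and 1064 CPM in the clones, 829.8 CPM in PRDX1MT and 649 CPM in WT. By CPM the 3 edited libraries all lay above WT. In TPM, which takes no TMM factors, PRDX1MT (766) lay below WT (822), so that side depends on the scale. The log2 ratio of DKO to WT was 0.79 (SE 0.54). Its membrane-bound partner Canx, calnexin, was on the other side, at 495 and 507 CPM in the clones, 424 CPM in PRDX1MT and 603 CPM in WT. Both belong to the cycle that folds glycoproteins in the ER lumen.

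Sdf2l1, a small ER protein that works with BiP, had 32 and 26.6 CPM in the clones, 18.3 CPM in PRDX1MT and 13.3 CPM in WT. It had the largest ratio of DKO to WT among the members above 0 (log2 1.13, SE 0.47, 95% interval 0.03 to 2.24), with an unadjusted p of 0.0538 and an adjusted p of 1 by edgeR with Benjamini-Hochberg adjustment. Clone 5 alone was 2.40-fold above WT (counting interval 2.15 to 2.67). Clone 1 was just short of a doubling, at a log2 ratio of 0.99. Sdf2l1 and Dnajb11 lie on chromosome 16, where the 635 genes tested had a median log2 ratio of 0.22 in DKO against WT.

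BiP itself, the Hspa5 product that holds the 3 sensors inactive, lay on both sides of WT, with 434 and 801 CPM in clones 5 and 1, 634 CPM in PRDX1MT and 551 CPM in WT. Hsp90b1, the ER form of HSP90, lay below WT in every edited library, at 482 and 328 CPM in the clones, 305 CPM in PRDX1MT and 557 CPM in WT. Hyou1, which exchanges nucleotides on BiP, had 221 CPM in clone 5 and 152 CPM in clone 1, against 228 CPM in PRDX1MT and 155 CPM in WT. These 3 genes had no common order over the libraries.

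Among the disulfide isomerases, Pdia4 had 213 and 234 CPM in the clones, 93.1 CPM in PRDX1MT and 149 CPM in WT. Against PRDX1MT its log2 ratio was 1.26 (SE 0.46), with an unadjusted p of 0.0339 and an adjusted p of 0.968 by edgeR with Benjamini-Hochberg adjustment, so it did not pass. Pdia6 was 2.15-fold above WT in clone 5 alone (512 CPM), with 215 CPM in clone 1, 295 CPM in PRDX1MT and 238 CPM in WT. Pdia3 stayed between 407 and 515 CPM in all 4 libraries. Pdia4 lies on chromosome 6, as do Edem1, Eif2ak3 and Asns. The median log2 ratio of the 1048 genes tested there was 0.56 in DKO against PRDX1MT and 0.28 in DKO against WT. The part of this in the ratios of these members was not tested.

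The J-domain cochaperones of BiP went separate ways. Dnajb9, an XBP1 target that also restrains IRE1, had 10.3 CPM in clone 5 and 27.5 CPM in clone 1, against 15.0 CPM in PRDX1MT and 22.6 CPM in WT. Dnajb11 had 101 and 77.6 CPM in the clones, 71.9 CPM in PRDX1MT and 64.4 CPM in WT, above WT in every edited library by CPM. In TPM it was lower in PRDX1MT (59.1) than in WT (72.6). Dnajc3, the PKR inhibitor p58IPK, was at 112 and 129 CPM in the clones, 100.3 CPM in PRDX1MT and 107 CPM in WT.

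Of the degradation genes, Edem1, which delivers misfolded glycoproteins to ERAD, had 119 and 128 CPM in the clones, 85.9 CPM in PRDX1MT and 96.2 CPM in WT. Herpud1, a scaffold of the ERAD ligase, had 76.5 and 87.6 CPM in the clones, 102 CPM in PRDX1MT and 76.8 CPM in WT. Neither gene passed the size rule in any comparison, and their highest libraries differed. Creld2, a stress protein that can be secreted, had 37.3 and 28.0 CPM in the clones, 31.9 CPM in PRDX1MT and 25.4 CPM in WT. Manf, a secreted stress protein, had 54.1 and 50.3 CPM in the clones, 75.1 CPM in PRDX1MT and 54.1 CPM in WT. Manf exons overlap those of Dcaf1 on the opposite strand, and the strand setting of the counting is not given in the sources used here, so reads of those bases cannot be told apart from that gene's. On its own strand Manf shares 14 exon bases with Rbm15b, which strand does not separate.

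The 7 sensors and transcription factors had a median log2 ratio of 0.23 in DKO against WT, 6 of them above 0, and 0 passed. Of all 19446 genes, 10176 were above 0. In clone 1 and clone 5 alone, 6 and 4 of the 7 were. Both clones lay above WT for 4 (Ern1, Atf6, Atf4 and Atf5) and below it for Xbp1. Those 5 genes had the same side in PRDX1MT by CPM. In TPM, Atf5 and Xbp1 kept their side there. Ern1 (13.1 against 14.9 TPM in WT), Atf6 (17.3 against 21.5) and Atf4 (327 against 352) lay below WT in PRDX1MT. Over all members, the 3 edited libraries lay together above WT for 9 of 34 and below it for 6, against 22.5% and 25.7% of all genes tested (48.2% together).

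Ern1, IRE1, had 37.1 and 36.4 CPM in the clones, 40.4 CPM in PRDX1MT and 33.4 CPM in WT, the narrowest span of the 3 sensors relative to its level. Eif2ak3, PERK, had 32.9 and 47.5 CPM in the clones, 23.6 CPM in PRDX1MT and 34.2 CPM in WT. Atf6 had 62.5 and 70.9 CPM in the clones, 60.0 CPM in PRDX1MT and 54.4 CPM in WT. None of the 3 sensors passed a test or the size rule in any comparison.

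Xbp1, total mRNA of both splice forms, had 34 and 57.4 CPM in the clones, 62.3 CPM in PRDX1MT and 64.3 CPM in WT. Clone 5 stood apart from the other 3 libraries. Its log2 ratio to WT was -0.92, under the size rule with TMM scaling and past it with total counts.

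Atf4 itself had 244 and 304 CPM in the clones, 290.1 CPM in PRDX1MT and 228 CPM in WT. Atf5, which supports survival under stress, had 327 and 508 CPM in the clones, 560.5 CPM in PRDX1MT and 258 CPM in WT. Ddit3, CHOP, which promotes cell death under lasting stress, had 29.7 CPM in clone 5 and 70.9 CPM in clone 1, against 32.6 CPM in PRDX1MT and 47.4 CPM in WT. Atf5 exons overlap those of Nup62 and Ddit3 exons those of Mars, both on the opposite strand. The shared bases are 4.11% of the Atf5 exons and 3.97% of the Ddit3 exons. Reads of those bases are uncertain in the same way as for Manf.

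**Figure D2:**
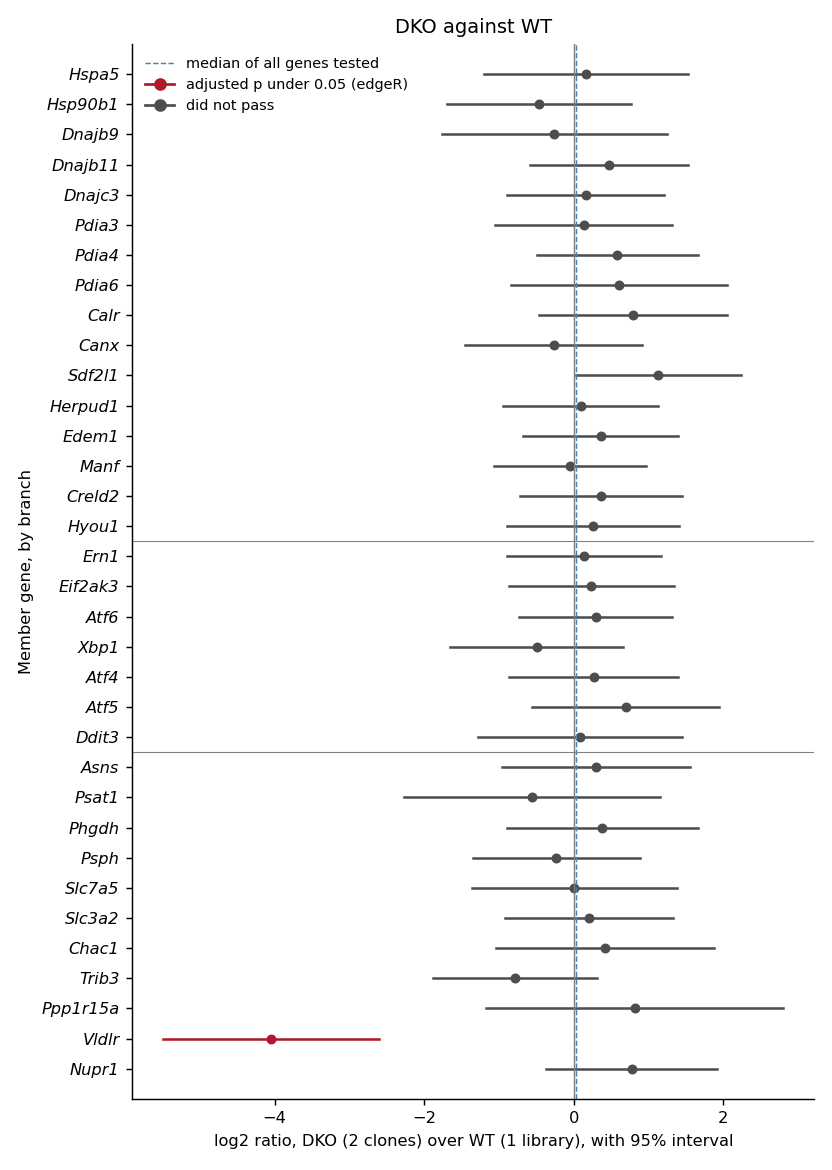
Fitted log2 ratio of DKO (2 clones) over WT (1 library) for each member, with 95% intervals from the edgeR fit, grouped by branch. Vldlr, at -4.05, was the 1 member that passed, and the Sdf2l1 interval (0.03 to 2.24) was the other that did not include 0. The intervals were built from the SE and apart from the test. By edgeR's quasi-likelihood test Sdf2l1 had an unadjusted p of 0.0538.

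The ATF4 branch had a median log2 ratio of 0.20 in DKO against WT, with 7 of 11 genes above 0, beside 10176 of all 19446 genes. Both clones lay above WT for 2 of the 11 (Slc3a2 and Nupr1), below it for 3 (Psph, Trib3 and Vldlr), and on both sides of it for 6. The median over clone 1 alone was -0.24, with 4 of the 11 genes above 0, and over clone 5 alone 0.08, with 6 above 0. The values of the DKO group lay above those of either clone.

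The serine synthesis enzymes act in the order Phgdh, Psat1, Psph. Phgdh had 303 and 163 CPM in clones 5 and 1, 291 CPM in PRDX1MT and 179 CPM in WT. Psat1 had 281 and 77.4 CPM, 182 CPM and 264 CPM in the same libraries. Psph had 24.7 and 18.7 CPM in the clones, 24.7 CPM in PRDX1MT and 25.5 CPM in WT, and shares exon sequence with Cct6a on the opposite strand. All 3 were lower in clone 1 than in clone 5, PRDX1MT and WT.

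Asns, which makes asparagine, had 232 and 122 CPM in clones 5 and 1, 115 CPM in PRDX1MT and 144 CPM in WT. Slc7a5, the light chain of the large neutral amino acid transporter, had 338 and 157 CPM in the clones, 283 CPM in PRDX1MT and 246 CPM in WT. Its heavy chain Slc3a2 had 250.2 and 295 CPM in the clones, 293 CPM in PRDX1MT and 237 CPM in WT. The 2 chains had opposite orders in the clones, with Slc7a5 higher in clone 5 and Slc3a2 higher in clone 1.

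Among the stress outputs, Ppp1r15a had 34.8 CPM in clone 5 and 188 CPM in clone 1, against 149.6 CPM in PRDX1MT and 63.0 CPM in WT. Chac1, which degrades glutathione, had 26.0 and 71.0 CPM in clones 5 and 1, 40.4 CPM in PRDX1MT and 36.2 CPM in WT. Clone 1 was the highest and clone 5 the lowest library for both. Trib3, a pseudokinase that restrains ATF4, had 36.2 and 53.5 CPM in the clones, 63.9 CPM in PRDX1MT and 77.2 CPM in WT, so every edited library lay below WT. Nupr1, a chromatin-associated stress protein, had 32.5 and 51.1 CPM in the clones, 23.1 CPM in PRDX1MT and 24.4 CPM in WT.

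In DKO cells against PRDX1MT, 0 of the 34 members passed edgeR's test with Benjamini-Hochberg adjustment, where 40 of all genes, 0.206%, did (0.0103% higher and 0.195% lower). At an unadjusted p under 0.05 there were 2 members, Vldlr and Pdia4, and 912 of all genes, and DESeq2 called 1 member, Vldlr. The median log2 ratio was 0.28 for the chaperone and ERAD genes, -0.08 for the sensors and transcription factors and -0.19 for the ATF4 branch, beside 0.04 for all genes. Both clones lay above PRDX1MT for 9 of the 16 chaperone and ERAD genes and below it for 3, against 31.0% and 33.1% of all genes (64.1% together). Standard errors of the members' log2 ratios ranged from 0.44 to 0.85 over both comparisons, so a doubling of a member was not detectable with these libraries.

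PRDX1MT and WT are single libraries, so they were compared without a test. A size rule was used in place of a test. It asks for a log2 CPM ratio of 1 or more in size (with a prior count of 2), for 100 or more reads over both libraries, and for a 95% exact counting interval of the ratio that leaves out no change. The rule took 2 of the 34 members, Atf5 and Ppp1r15a, both higher in PRDX1MT, against 9.67% of all genes (4.73% higher and 4.94% lower). With total-count scaling 2.80% of all genes were higher and 8.92% lower. Atf5 had 560.5 CPM in PRDX1MT and 258 CPM in WT, 2.18-fold higher (counting interval 2.12 to 2.23). Ppp1r15a had 149.6 CPM in PRDX1MT and 63.0 CPM in WT, 2.37-fold higher (2.26 to 2.50). With total counts in place of TMM scaling these log2 ratios were 0.85 and 0.97 in place of 1.12 and 1.25, and neither passed.

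The median log2 ratio of PRDX1MT to WT was 0.18 for the chaperone and ERAD genes with TMM scaling and -0.09 with total counts. It was 0.14 and -0.13 for the sensors and transcription factors, and -0.05 and -0.32 for the ATF4 branch. Total counts moved the median of all genes by -0.27 in this comparison, by -0.12 in DKO against WT and by 0.16 in DKO against PRDX1MT. The chaperones with the lowest ratios were Hsp90b1 (-0.87), Pdia4 (-0.68) and Dnajb9 (-0.59), and those with the highest were Hyou1 (0.55), Manf (0.47) and Sdf2l1 (0.45). The median of all genes tested on the member's chromosome was -0.14 for Hsp90b1, -0.25 for Pdia4 and 0.05 for Dnajb9. It was 0.23 for Hyou1 and Manf, which share chromosome 9, and 0.005 for Sdf2l1. The part of these medians in the members' ratios was not tested.

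**Figure D3:**
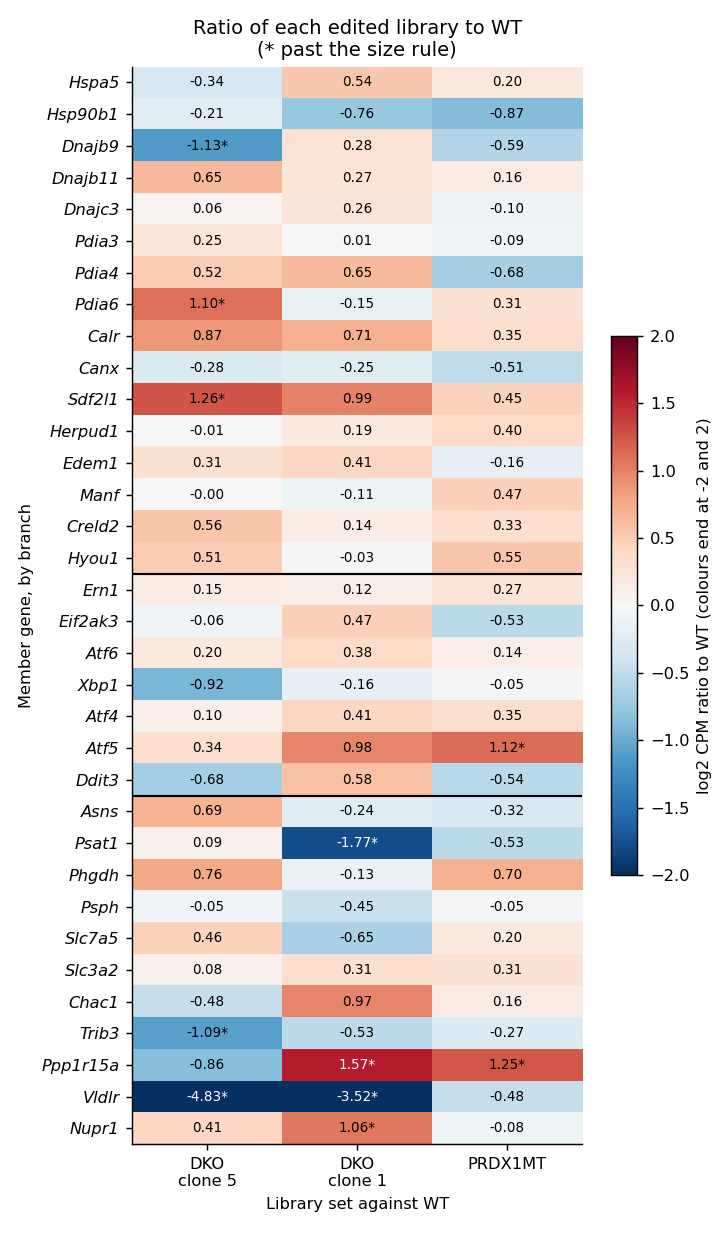
Log2 CPM ratio of DKO clone 5, DKO clone 1 and PRDX1MT (columns) to WT for each member (rows, by branch), as a colour and a printed value, with a star where the size rule was passed. Vldlr carries a star in both DKO clones (-4.83 and -3.52), Ppp1r15a in clone 1 (1.57) and PRDX1MT (1.25), and the other stars stand in 1 column each.

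Each clone was then set against WT by the same size rule. In clone 5, 5 of the 34 members passed, against 9.27% of all genes (3.70% higher and 5.57% lower), or 2.81% higher and 6.97% lower with total-count scaling. These were Pdia6 and Sdf2l1, higher, and Dnajb9, Trib3 and Vldlr, lower. With total-count scaling Pdia6 did not pass, and Xbp1 did, as lower. Dnajb9 was 2.19-fold lower than in WT (counting interval 1.92 to 2.51) and Trib3 2.13-fold lower (1.99 to 2.29). Vldlr was 29.5-fold lower (22.1 to 40.3).

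In clone 1, 4 of the 34 passed, against 10.6% of all genes (5.59% higher and 5.03% lower), and all 4 belong to the ATF4 branch. Ppp1r15a was 2.98-fold higher than in WT (counting interval 2.84 to 3.12) and Nupr1 2.09-fold higher (1.93 to 2.26). Nupr1 did not pass with total-count scaling. Psat1 was 3.41-fold lower (3.27 to 3.55) and Vldlr 11.6-fold lower (9.84 to 13.7). Vldlr was the member that passed in both clones. Both clone comparisons share the WT library.

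The clones were also set against each other, since they are the replicates of the DKO group. The rule took 8 of the 34 members, against 11.6% of all genes (4.83% higher and 6.79% lower). Pdia6, Psat1 and Slc7a5 were higher in clone 5, and Dnajb9, Ddit3, Chac1, Ppp1r15a and Vldlr were lower. Of these 8, 5 belong to the ATF4 branch, 2 to the chaperones and 1 to the transcription factors.

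Between the clones, the amino acid genes of the ATF4 branch other than Slc3a2 lay on the opposite side from its stress outputs. Psat1 was 3.63-fold higher in clone 5 than in clone 1 (counting interval 3.48 to 3.80) and Slc7a5 2.16-fold higher (2.09 to 2.23), and Asns, Phgdh and Psph had log2 ratios of 0.93, 0.89 and 0.40. Ppp1r15a was 5.40-fold lower in clone 5 (5.04 to 5.78) and Chac1 2.73-fold lower (2.51 to 2.97), and Nupr1 and Trib3 had log2 ratios of -0.65 and -0.56. Slc3a2, at -0.24, was the amino acid gene on the side of the stress outputs, and Vldlr, at -1.32, lay on that side too. The planned comparisons did not divide the branch into these kinds, so their sides are a description.

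The size of the difference between clones, regardless of sign, had a median of 0.25 on the log2 scale for the chaperone and ERAD genes, 0.53 for the sensors and transcription factors and 0.93 for the ATF4 branch. Over all genes tested it was 0.53. Summed over the branch, the chaperone and ERAD genes came to 4603 CPM in clone 5, 4290.4 CPM in clone 1, 3715 CPM in PRDX1MT and 3797 CPM in WT. The ATF4 branch came to 1561, 1200.2, 1502 and 1346 CPM in the same order, and the sensors and transcription factors to 767, 1095, 1069 and 719 CPM. In TPM, the chaperone and ERAD genes summed to 2787 in PRDX1MT and 3831 in WT. The ATF4 branch summed to 1291 and 1532 TPM there, and the sensors and transcription factors to 1217 and 1053 TPM. The ATF4 sum was thus higher in PRDX1MT than in WT by CPM and lower by TPM.

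**Figure D4:**
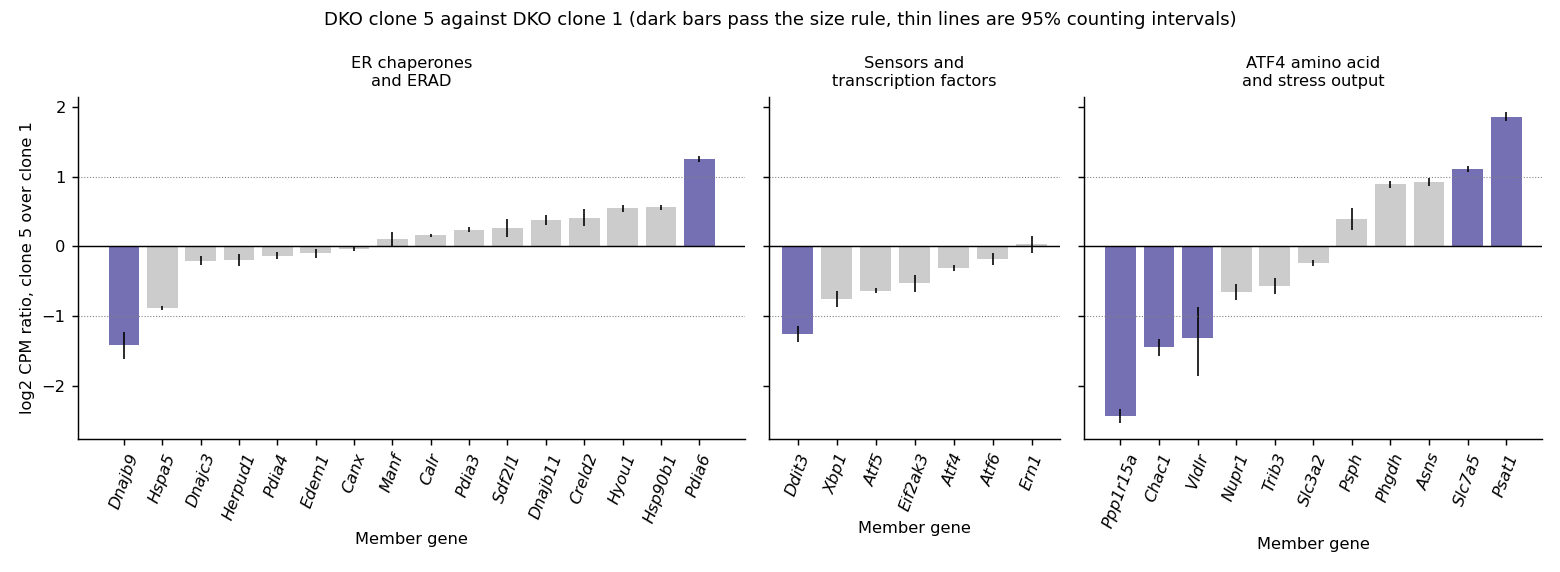
Log2 CPM ratio of DKO clone 5 over DKO clone 1 for each member, sorted within its branch, with 95% counting intervals as thin lines, dark bars for members past the size rule and dotted lines at a log2 ratio of 1 and -1. The ATF4 branch spans -2.43 (Ppp1r15a) to 1.86 (Psat1), and 14 of the 16 chaperone and ERAD genes lie between the dotted lines.

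Other genes of the same pathways were followed in 10 lists. In DKO against WT, 0 of the 129 tested genes of the 10 lists passed edgeR's test with Benjamini-Hochberg adjustment. At an unadjusted p under 0.05 by edgeR there were 8 of the 129, beside 988 of all 19446 genes, and DESeq2 called 1 of the 129, Gdf15. Medians of the lists lay between -0.16 (ATF4 target amino acid transporters) and 0.44 (other ER stress transcription factors), beside 0.03 for all genes. The 20 further ER folding enzymes had a median of 0.15 and the 15 further ERAD genes one of 0.07. The 16 tested ATF4 targets of amino acid and one-carbon metabolism had a median of 0.26, and the 13 aminoacyl-tRNA synthetases, also known ATF4 targets, one of -0.10.

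Among the 9 other transcription factors, 2 passed the size rule in PRDX1MT against WT, both higher, Cebpb and Atf3, against 4.73% of all genes higher and 4.94% lower. Cebpb, a dimer partner of ATF4, had 35.4 CPM in clone 5 and 171 CPM in clone 1, with 109 CPM in PRDX1MT and 21.2 CPM in WT. Atf3, a repressor induced by ATF4, had 0.944 CPM in clone 5 and 46.2 CPM in clone 1, with 58.8 CPM in PRDX1MT and 16.1 CPM in WT. The rule took both genes in clone 1 against WT as higher, and Atf3 in clone 5 as lower, and both were lower in clone 5 than in clone 1. Clone 1 and PRDX1MT were the 2 highest libraries for Cebpb, for Atf3 and for the member Ppp1r15a, and clone 5 lay below WT for Atf3 and Ppp1r15a and above it for Cebpb.

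In the metabolic list of ATF4 targets, 5 of 16 genes passed the size rule in clone 1 against WT, 2 higher and 3 lower, where 5.59% of all genes were higher and 5.03% lower. In clone 5 there were 3, 2 higher and 1 lower, where 3.70% and 5.57% of all genes were. Cth, which makes cysteine, had 2.40 and 1.07 CPM in clones 5 and 1, 12 CPM in PRDX1MT and 8.72 CPM in WT, so it was low in both clones. The log2 ratio of DKO to WT was -2.34 for Cth, with an adjusted p of 0.449 by edgeR with Benjamini-Hochberg adjustment. Against PRDX1MT it was -2.79 (adjusted p = 0.340 by the same test), and DESeq2 called it there. In that comparison edgeR called 0 of the 129 genes of the 10 lists, and Cth was the 1 called by DESeq2. By edgeR 3 of the 129 had an unadjusted p under 0.05, beside 912 of all 19446 genes. The 2 genes with the largest differences between the clones lay on opposite sides. Gdf15, a stress cytokine, had 1.63 and 11.5 CPM in clones 5 and 1, 0.844 CPM in PRDX1MT and 0.219 CPM in WT. Bcat1, which transfers amino groups from branched-chain amino acids, had 119 and 21.6 CPM in the clones, 52.3 CPM in PRDX1MT and 58.8 CPM in WT. The mitochondrial folate enzyme gene Mthfd1l had 148 and 39.6 CPM in the clones, 104 CPM in PRDX1MT and 58.9 CPM in WT. Between the clones, 4 of the 16 genes passed the size rule as higher in clone 5 and 2 as lower, where 4.83% and 6.79% of all genes did. Bcat1 and Mthfd1l were among the higher and Gdf15 among the lower. They were named for the size of their ratios in these libraries, so their sides are a description and no check of those in the ATF4 branch.

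Of the transporters, Slc43a1, a carrier of neutral amino acids, had 0.0726 and 0.112 CPM in clones 5 and 1, 0.241 CPM in PRDX1MT and 2.28 CPM in WT, with 2, 4, 6 and 94 reads. It was below WT in every edited library, and the log2 ratio of DKO to WT was -4.55 (adjusted p = 0.159 by edgeR with Benjamini-Hochberg adjustment). Among the folding enzymes, Pdia5 had 80.7 and 32.2 CPM in clones 5 and 1, 21.6 CPM in PRDX1MT and 25.9 CPM in WT, high in clone 5 as Pdia6 was. Fkbp7, an ER prolyl isomerase, had 5.88 and 14.2 CPM in the clones, 10.3 CPM in PRDX1MT and 14.9 CPM in WT. Sil1, a nucleotide exchange factor of BiP, was the folding gene past the size rule in PRDX1MT, at 40.5 CPM, against 19.1 CPM in WT.

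**Figure D5:**
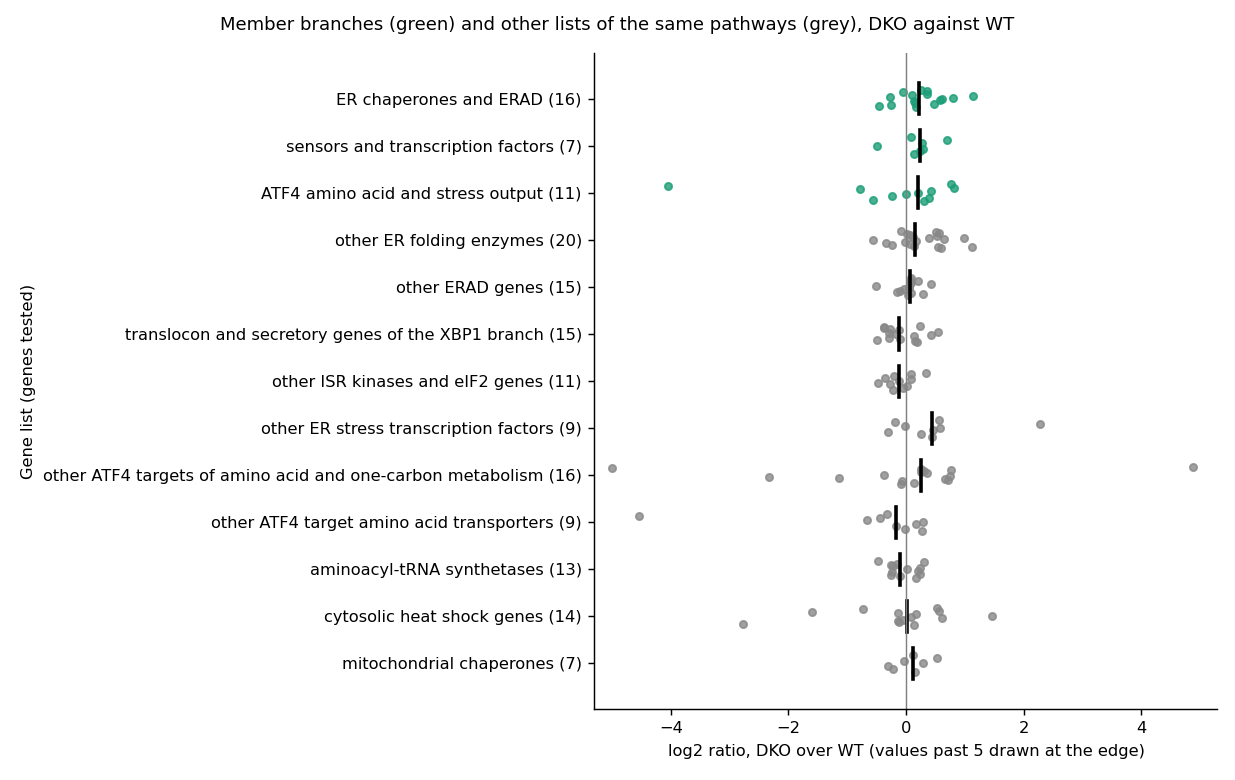
Log2 ratio of DKO over WT for each tested gene (points) of the 3 member branches (green) and of 10 other lists (grey), with the median of each list as a black bar and values beyond 5 in size drawn at the edge. Vldlr, at -4.05, lies apart from its branch, and every median lies between -0.16 and 0.44.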

How the data were processed

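RNA of C3H10T1/2 cells was sequenced in 4 libraries (DKO 2 clones, PRDX1MT 1, WT 1), made with a stranded total RNA kit after ribosomal RNA removal, per the labels' protocols. STAR 2.6.1d and the genome mm10 are named in the submitters' processing notes. How reads were then counted, and with which strand setting, is not given in the sources used here. Raw counts per Ensembl gene were deposited by the authors, and 54495 of 54532 identifiers were found in GENCODE M21, which gave symbols and coordinates. Ddit3 has 2 identifiers there, of which the 1 with reads was used.

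Depth was 27570136 to 37685798 counts per library, and a count of 3, close to the limit that a count of 0 allows, was worth 0.0729 to 0.121 CPM. Without molecular identifiers, PCR reads are no independent molecules, so counting intervals (exact Poisson for levels, conditional exact binomial for ratios) cover counting error only. The clones may differ by more or less than separate cultures would, so each p-value speaks only of the spread seen here, which may be technical.

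The main analysis used edgeR 4.0.16 in R 4.3.3 (TMM scaling, filterByExpr by group, quasi-likelihood test, Benjamini-Hochberg adjusted p under 0.05 over 19446 genes; 1 residual and 6.54 prior degrees of freedom) and, as an alternative, DESeq2 1.42.0. The tests set DKO against WT and DKO against PRDX1MT. Between single libraries the size rule was used, without a p. TPM used merged exon lengths and no TMM factors, so the side of PRDX1MT to WT can differ between TPM and CPM. Promoter windows came from a RefSeq table and were searched by exact letters, N being any base; the CARE spelling was set to the textbook consensus after a first reading of these promoters. The tests were checked on simulated data. Alternatives were other scalings, filters, samples in the fit, size-rule settings and each clone left out.

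The members, lists and branches were chosen with earlier results of these data known. Members that passed a test or the size rule, and the top of each branch, have values in every library by rule; other members are given for completeness. Of other lists, the genes that passed, or otherwise the 2 largest ratios past the size rule per comparison, were named.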

Additional observations from a re-analysis of the deposited data

How the results depend on the processing

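In DKO against WT, 1 member was called in the reported fit. The count was 0 with median-of-ratios factors, 0 with total-count scaling and 0 with 1 CPM in 2 libraries, and 1 with DESeq2, with no low-count filter and with only the groups compared. Over all genes these gave 76, 76 and 0, and 262, 535 and 108, against 91. Fits without a clone joined PRDX1MT and WT to give a spread. They set the remaining clone against both lines together, so they speak of neither comparison alone and no count is given. In DKO against PRDX1MT, 0 members were called, but 1 with DESeq2 (215 genes) and 1 with no filter (404 genes), against 40 genes. The other fits there called 13 genes (median-of-ratios factors), 7 (total-count scaling), 0 (1 CPM in 2 libraries) and 11 (only the groups compared). Vldlr was the member called each time.

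For the size rule, thresholds of a 1.5-fold ratio and of 1.5 on the log2 scale gave 6 and 0 members in PRDX1MT against WT (2 as reported), 12 and 1 in clone 5 (5 as reported) and 14 and 2 between the clones (8 as reported). A 1.5-fold threshold gave 11 in clone 1 (4 as reported). Total-count scaling left 1 in PRDX1MT, Hsp90b1, lower. With that scaling Pdia6 in clone 5 and Nupr1 in clone 1 no longer passed against WT, and Xbp1 passed in clone 5 as lower. The median of all genes then moved by -0.14 in clone 5 against WT and by -0.09 in clone 1 against WT. Over all genes the size rule took 794 to 4350 in PRDX1MT against WT (1881 as reported), 848 to 4178 in clone 5 against WT (1802), 998 to 4417 in clone 1 against WT (2065) and 1012 to 4629 between the clones (2261).

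Branch medians moved with total-count scaling and with the clone left out. The furthest move in DKO against WT was that of the ATF4 branch without clone 5, to -0.24, against 0.20 with both clones. With total-count scaling, for chaperones and ERAD they became 0.10 (DKO against WT), 0.43 (DKO against PRDX1MT), -0.095 (PRDX1MT against WT), 0.14 (clone 5 against WT), 0.13 (clone 1 against WT) and 0.088 (clone 5 against clone 1). In PRDX1MT against WT they became -0.13 for sensors and -0.32 for the ATF4 branch. With no filter the chaperone median against PRDX1MT was 0.33. Without a clone, chaperone medians ranged from 0.23 to 0.28 against WT and from 0.18 to 0.28 against PRDX1MT, and the ATF4 branch from -0.24 to 0.079 against WT. The cause of these moves was not tested.

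No paired analysis was possible because the groups compared share fewer than 2 replicate numbers. Among members not called, 22 values in DKO against WT and 26 against PRDX1MT changed sign under an alternative. These counts include the fits without a clone, in which PRDX1MT and WT were joined. With 1 library of WT and 1 of PRDX1MT, the spread between separate cultures of those lines is unknown.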

Other observations

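Chaperones of other compartments and the secretory genes of the XBP1 branch were read beside the members. Of 15 translocon and secretory genes, 0 were above WT in all 3 edited libraries and 7 were below it, where 22.5% and 25.7% of all genes tested were. The median of their log2 ratios was -0.12 for DKO over WT and -0.42 for PRDX1MT over WT, and 0 passed edgeR's test or the size rule. The 7 mitochondrial chaperones had a median of 0.11 in DKO against WT, with 0 called. Of 14 cytosolic heat shock genes, 0 passed edgeR's test in DKO against WT. DESeq2 called 0 genes of these 3 lists in DKO against WT. At an unadjusted p under 0.05 by edgeR there were 0, 0 and 2, beside 988 of all 19446 genes. The 2, named after their values were seen, were Hspa1a, an inducible HSP70 (log2 ratio of DKO to WT -2.77), and Dnajb1 (1.46). Hspa1a had 0.327 and 0.252 CPM in clones 5 and 1, 0.442 CPM in PRDX1MT and 1.99 CPM in WT, with 9, 9, 11 and 82 reads, under the size rule's 100 reads over both libraries in every pair. Dnajb1, a cytosolic cochaperone of HSP70, was the 1 past the size rule in clone 1 against WT, with 85.7 and 169 CPM in clones 5 and 1, 79.4 CPM in PRDX1MT and 46.3 CPM in WT. Hspa1b, a near-identical copy of Hspa1a between which reads may be split, had 15.3 and 32.8 CPM in clones 5 and 1, with 24.5 CPM in PRDX1MT and 26.1 CPM in WT, and passed the size rule between the clones.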
